A study of Mus musculus with 12 samples.

Results

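The interferon response genes of SIRT1 wild type, heterozygous and knockout mouse embryonic fibroblasts (MEFs) were measured here on 12 single-colour Agilent whole mouse genome arrays. The members were the array probes whose gene name was among 41 listed names of the type I and type II interferon response. Probes for 37 of the 41 names were found, 62 of the 41174 non-control probes, and these 37 genes stand among 27962 named features on the array. The names Gbp3, Irf9, Xaf1 and Dhx58 did not occur as array names. All 37 genes passed the filter on dim probes that left 16990 features for testing, and the probe that stands for each gene, the brightest one, was well above background on all 12 arrays; some further probes of the members were not.

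The study compared MEFs of 3 Sirt1 genotypes, with 4 arrays each: wild type (WT, replicates 1, 2, 3 and 5), SIRT1 heterozygous (Het, replicates 2, 3, 4 and 5) and SIRT1 homozygous, named KO (replicates 2, 3, 4 and 5). SIRT1 is an NAD-dependent protein deacetylase. The labels describe all cells as female, untreated and in log-phase growth in DMEM with 10% serum, 25 mM glucose and 4 mM glutamine. The Sirt1 allele, the strain, the embryonic age and the number of embryos behind each genotype are not given in the sources used here. No label states whether the arrays of a genotype hold separate embryos or cultures, and their spread, which the p-values rest on, may be technical.

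Type I interferons are secreted cytokines that bind the IFNAR1 and IFNAR2 receptor chains and activate the kinases JAK1 and TYK2. A complex that holds phosphorylated STAT2 and IRF9 then binds interferon-stimulated response elements in the promoters of target genes, while interferon gamma acts through gamma-activated sites. The targets include sensors of foreign nucleic acid, enzymes that stop translation or degrade RNA, GTPases that act on viruses and intracellular parasites, and regulators of the pathway itself. Fibroblasts respond to interferon and can make interferon beta when their nucleic acid sensors are engaged.

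Some arrays stood apart from their group. The arrays numbered 3 differed most from the rest of their genotypes, and WT replicate 3 went against its female label: the Xist probe lay at -2.94 there and between 1.66 and 3.42 on the other 11 arrays, and a Ddx3y probe, from the Y chromosome, lay at 1.04 on the log2 scale described next. That Ddx3y probe lay at -4.35 on Het replicate 3, at -5.28 on KO replicate 3 and from -10.16 to -7.04 on the other 9 arrays. It is written below as the array labelled WT replicate 3. KO replicates 4 and 5 were nearly alike (Pearson r = 0.998 across features, 87 features over 2-fold apart). Het replicates 4 and 5 were the closest Het pair (r = 0.994, 571 features over 2-fold apart), and in both pairs 0 members were over 2-fold apart, so the 3 arrays left in Het and in KO without those numbered 3 include such a pair. A Sirt1 probe at chr10:62838289-62838348 of mm7, the build named in the file headers, had a level of 0.36 ± 0.21 in WT, 0.37 ± 0.03 in Het and -0.47 ± 0.29 in KO (SD, n = 4), while the other Sirt1 probe gave 0.79, 0.87 and 0.81. The 4 slides each held arrays of up to 3 genotypes, and slide 2 held WT replicate 1 alone. Of 11 fibroblast markers all 11 were well above background on every array, and their summed linear level was 588 to 749 in WT, 712 to 908 in Het and 557 to 673 in KO. Thy1 and Dcn, among these markers, differed between genotypes, with values given beside the other marker lists.

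Levels below are log2 processed signals relative to the 75th percentile of the same array, so a level of 0 equals that percentile and a difference of 1 is a 2-fold change. Array values are listed by replicate number: WT arrays as 1, 2, 3, 5, and Het and KO arrays as 2, 3, 4, 5. A gene was called where limma's moderated test, adjusted by the Benjamini-Hochberg method over all 16990 features, gave an adjusted p under 0.05. In bulk RNA, fewer cells expressing a gene and less of its RNA per cell cannot be told apart.

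Promoter sequences of the members are shown first because they hold the element through which the pathway acts. RefSeq windows from 250 bases before to 50 bases after the start site (assembly GRCm38.p6) were available for 28 of the 37 genes. The core of the element, GAAA followed by any 2 bases and GAAA again, searched on both strands, was found in 16 of the 28 (57.1%) and in 3.99% of the 27025 genes with a window. The subset of cores with T as the last of the 2 free bases was found in 9 members (32.1%) against 0.932% of genes, and TTCNNNGAA, the letters of a gamma-activated site, in 11 members (39.3%) against 9.55%. In the stretches below, which end before the start site, capitals mark each core or its reverse complement. They show members with closely spaced or overlapping cores (Ifit1, Isg15, Oas1a, Bst2) and a core in a GTPase, a radical SAM enzyme and a pair of related sensors.
Ifit1: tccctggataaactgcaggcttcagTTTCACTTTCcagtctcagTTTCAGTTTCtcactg
Isg15: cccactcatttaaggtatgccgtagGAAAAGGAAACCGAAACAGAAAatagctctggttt
Oas1a: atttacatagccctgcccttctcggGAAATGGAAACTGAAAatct
Bst2: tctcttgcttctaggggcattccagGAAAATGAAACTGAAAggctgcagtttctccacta
Gbp2: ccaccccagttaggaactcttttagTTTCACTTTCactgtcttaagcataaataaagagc
Rsad2: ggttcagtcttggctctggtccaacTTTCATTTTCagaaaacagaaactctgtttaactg
Ifi203: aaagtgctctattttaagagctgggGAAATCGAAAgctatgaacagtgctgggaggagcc
Ifi205: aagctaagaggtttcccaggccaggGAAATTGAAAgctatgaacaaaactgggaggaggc

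In GRCm38.p6 the Ifit1 stretch is chr19:34640760-34640819 and the Gbp2 stretch chr3:142620579-142620638, both on the plus strand. The others lie on the minus strand: Isg15 at chr4:156200862-156200921, Oas1a at chr5:120907526-120907570, Bst2 at chr8:71537568-71537627 and Rsad2 at chr12:26456538-26456597. Ifi203 and Ifi205, neighbours in the Ifi200 cluster, gave chr1:173942493-173942552 and chr1:174031855-174031914, and their stretches shared a run of 14 bases that covers the end of the core. In Eif2ak2, Ddx58, Ifih1 and Ifitm3 the core lay only after the start site. The core was not in the windows of 12 members, among them Oasl1, Irf7 and Ifi44, which says only that these letters are not in these windows. Members with a core had a median Het minus WT difference of 1.02 (0.25 to 2.36, n = 16 genes) and members without it 0.75 (0.03 to 2.09, n = 12 genes). The members with no window had a median of 1.41 (0.68 to 1.89, n = 9 genes). The ranges overlap, and the values are given here as a description.

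**Figure D1:**
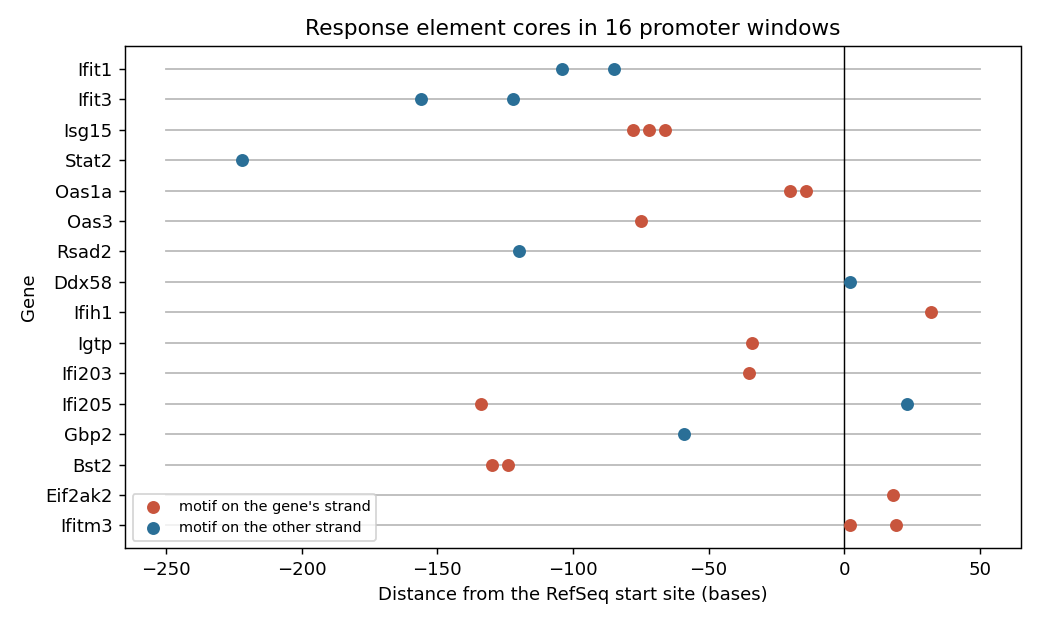
Position of each response element core (points, coloured by strand) relative to the RefSeq start site at 0 in the promoter windows of the 16 members that held one; grey lines span the window searched, in bases. In 12 of the 16 a core lies before the start site, and in Ddx58, Ifih1, Eif2ak2 and Ifitm3 only after it.

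Across the 12 arrays the interferon response genes varied together, and their height differed between arrays of a genotype as well as between genotypes. Each gene was centred on its own mean over the arrays, and the median over the 37 genes was taken on each array. This median was -0.11, -1.54, -0.31 and -0.40 on the WT arrays. On the Het arrays it was 1.31, -0.99, 0.74 and 0.62. The KO arrays had the narrowest range, at 0.15, -0.07, 0.32 and 0.33. Het replicate 2 was the highest array for 32 of the 37 genes, and WT replicate 2 was the lowest for 24. Het replicate 3 lay below every other Het array for 37 of 37 genes, with a median distance of 1.82 from their mean. By genotype, the WT mean was -0.59 ± 0.64, the Het mean 0.42 ± 0.99 and the KO mean 0.18 ± 0.19 (SD, n = 4 arrays). Leaving out the arrays numbered 3 gave -0.68 ± 0.75, 0.89 ± 0.37 and 0.26 ± 0.10 (SD, n = 3 arrays). The typical member varied more within WT and Het than other genes did: the median SD between arrays was 0.80 in WT, 0.94 in Het and 0.29 in KO, against 0.45, 0.26 and 0.23 over all features tested. The arrays with the lowest 75th percentile, WT replicate 2 (log2 10.76) and Het replicate 2 (log2 10.74), lay at opposite ends of the interferon gene levels.

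**Figure D2:**
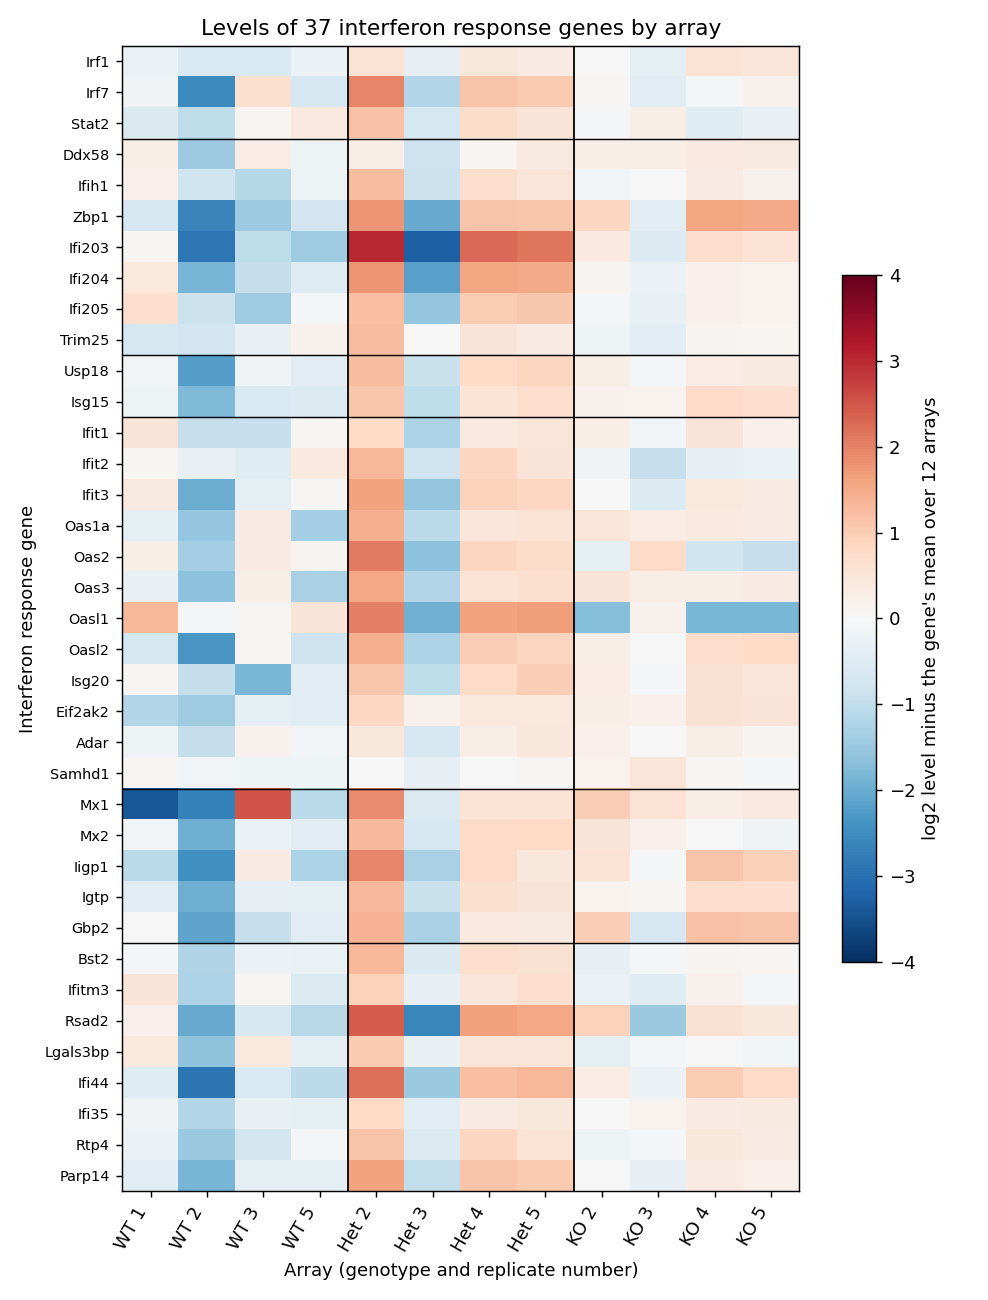
Log2 level of each of the 37 interferon response genes (rows, grouped by role) on each of the 12 arrays (columns), minus the gene's mean over the arrays. Het replicate 2 is high and WT replicate 2 and Het replicate 3 are low through most rows, while Oasl1 is low on KO replicates 2, 4 and 5 and Mx1 is highest on the array labelled WT replicate 3.

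**Figure D3:**
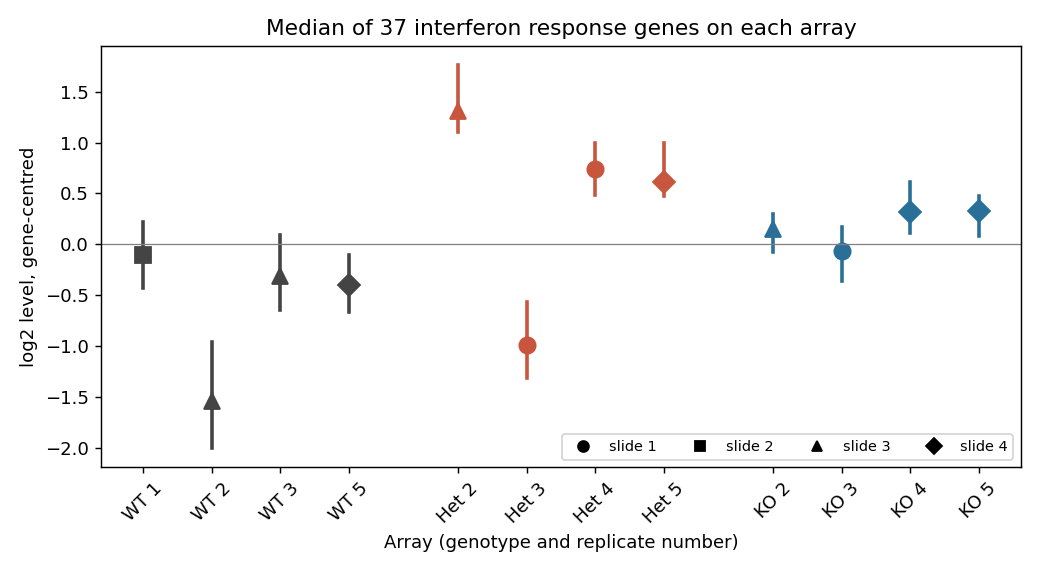
Median over 37 interferon response genes of the gene-centred log2 level on each array; bars span the lower to upper quartile over genes, colours mark genotype and symbols the slide. The WT medians run from -1.54 to -0.11, the Het medians from -0.99 to 1.31 and the KO medians from -0.07 to 0.33.

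The first comparison asked how the response genes stood in heterozygous cells. All 37 members had a higher mean level in Het than in WT, with a median difference of 1.09, where the median over all tested features was 0.08 and 59.3% of features were above 0. The differences ran from 0.03 for Samhd1 to 2.36 for Ifi203, and 20 exceeded 1. Eif2ak2, which encodes the RNA-activated kinase PKR, was the only member called, 1 of 37, where 0.671% of all features were called higher in Het and 1.17% in either direction. At an unadjusted p under 0.05 there were 16 members (43.2%), against 16.3% of all features. When the arrays numbered 3 were left out, 26 of the 37 members rose (70.3%, against 6.10% of all features), with a median difference of 1.57, and in 33 of 37 the Het arrays lay above all WT arrays, against 17.5% of all features. With slide as a block the median difference was 1.62 and no member was called, where 0.182% of features were. Leaving out Het replicate 3 alone gave 11 calls and a median of 1.56 (1.22% of features were called higher). Leaving out Het replicate 2 or WT replicate 2 gave no call and medians of 0.73 and 0.77, where 17 of 17046 and 23 of 17112 features were called. The members that did not pass without the arrays numbered 3 were Gbp2, Ifit3, Ifi205, Ifitm3, Stat2, Lgals3bp, Oas2, Ifit2, Ifit1, Ddx58 and Samhd1.

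The second comparison asked the same of KO cells, against the same 4 WT arrays. In KO, 34 of the 37 members had a higher mean level than in WT and 3, Oasl1, Ifit2 and Oas2, a lower one. The median difference was 0.75, where that over all features was 0.08 and 58.7% of features were above 0, and 14 members exceeded 1. Eif2ak2 was again the only member called, where 0.971% of all features were called higher in KO and 1.64% in either direction. At an unadjusted p under 0.05 there were 12 members (32.4%), against 16.5% of all features. In 9 members (24.3%) every KO array lay above every WT array, against 5.83% of all features: Isg15, Oas3, Usp18, Ifi44, Parp14, Igtp, Ifi35, Zbp1 and Eif2ak2. This holds for the brightest probe of each gene. On the further tested probes of Oas3, Ifi44 and Parp14 the WT and KO groups overlapped. Such separation of 4 against 4 arrays fixes the unadjusted two-sided exact permutation p at 0.0286, the smallest it can take. For these 9 members that p restates the separation and adds no support. The same holds for each exact p given with single genes below. In Het against WT, 1 member (2.70%) had non-overlapping groups, against 6.39% of all features. With the arrays numbered 3 left out, 14 members were called in KO (37.8%, against 17.1% of all features): 13 rose, where 8.54% of features did, and Oasl1 fell, with a median difference of 0.80. With slide as a block the median difference was 1.08 and no member was called, where 0.335% of features were. Leaving out WT replicate 2 alone lowered the median difference to 0.44. The 13 were Ifi44, Zbp1, Mx1, Iigp1, Oasl2, Eif2ak2, Isg20, Igtp, Oas3, Isg15, Oas1a, Gbp2 and Irf1.

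**Figure D4:**
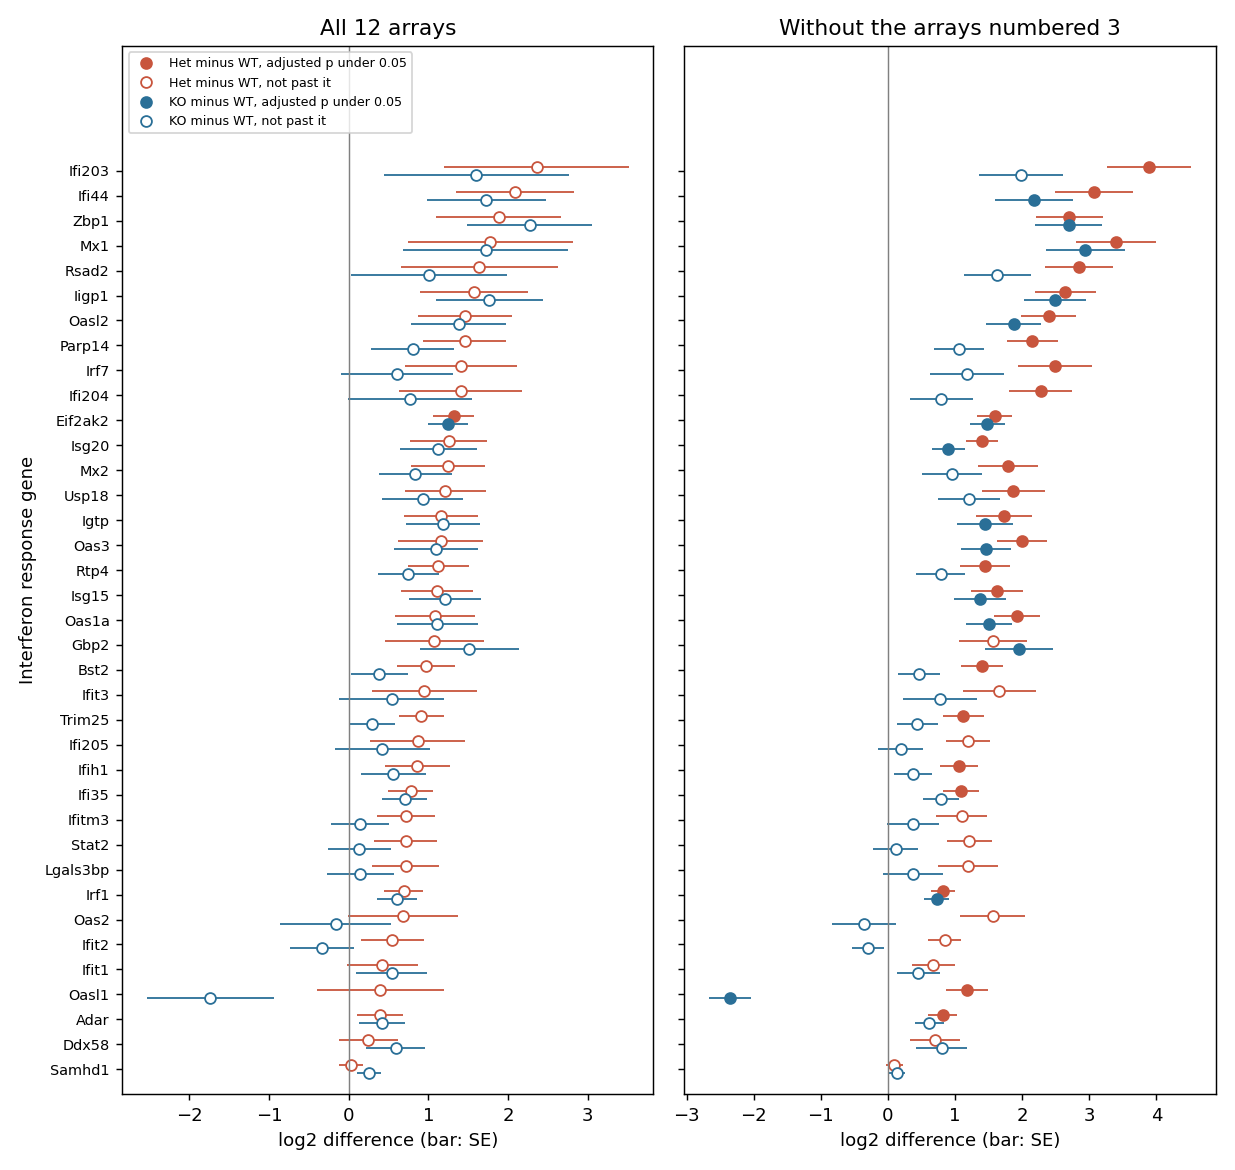
Log2 difference from WT of the 37 interferon response genes in Het (red) and KO (blue), with SE bars, over all 12 arrays (left) and without the arrays numbered 3 (right); filled symbols have a limma adjusted p under 0.05. All Het points lie above 0 in both panels; 1 Het and 1 KO point, both Eif2ak2, are filled at left, and 26 Het and 14 KO points at right.

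KO was then set against Het. No member was called between them, where 0.995% of features were. At an unadjusted p under 0.05 there were 2 members (5.41%), Oasl1 and Ifit2, against 11.2% of features, and the lowest limma adjusted p of a member was 0.315. The mean was lower in KO for 27 members and higher for 10, with a median difference of -0.30, where all features had -0.02 and 47.1% of features were above 0. Without scaling between arrays the split was 20 lower and 17 higher. Without the arrays numbered 3, 3 members (8.11%) were called, where 1620 of 17807 features were called in either direction, so the count was near the background. These 3, Oasl1, Ifit2 and Oas2, fell in KO relative to Het, where 4.48% of features did, and 34 members had a lower mean. The median difference was -0.02 without Het replicate 2 and -0.73 without Het replicate 3.

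Comparisons inside slides and between arrays of the same number differed in size and, in KO minus Het and Het minus WT, in sign. These 2 sets of comparisons share arrays. Het minus WT on slide 4 is the pair of arrays numbered 5, and KO minus Het on slide 3 is the pair numbered 2. Slide 3 and number 2 both hold Het replicate 2 and WT replicate 2, the highest and the lowest array for most members. On slide 3 the Het array exceeded the mean of the WT arrays in 37 of 37 members, with a median of 2.26. On slide 4 the Het array exceeded the WT array in 37 of 37, with a median of 1.14. All features had medians of 0.13 and -0.02 there, with 59.5% and 48.1% higher. KO minus WT gave 1.08 on slide 3 (36 of 37 higher) and 0.68 on slide 4 (32 of 37). For all features these were 0.03 (53.2% higher) and -0.02 (48.6%). KO minus Het was -1.20 on slide 3 (1 of 37 higher), -0.34 on slide 4 (8 of 37) and 0.07 on slide 1 (20 of 37). For all features the medians were -0.13, -0.01 and -0.02, with 41.0%, 49.1% and 48.3% higher. Between arrays numbered 3 the Het array was lower than the WT array in 31 of 37 members, with a median of -0.63. This was opposite in sign to the medians of 2.88 between arrays numbered 2 and 1.14 between those numbered 5. For numbers 3, 2 and 5 all features had medians of 0.21, -0.02 and -0.02, with 61.9%, 48.5% and 48.1% higher. KO minus WT between arrays numbered 3 had a median of 0.20 (24 of 37 higher). All features had a median of 0.26 there with 64.3% higher, so this was near the background. KO minus Het was 0.97 between arrays numbered 3 (33 of 37 higher), opposite in sign to the medians of -1.20, -0.30 and -0.35 between arrays numbered 2, 4 and 5. For numbers 3, 2, 4 and 5 all features had medians of -0.01, -0.13, 0.04 and -0.03. Of all features 49.2%, 41.0%, 53.0% and 46.6% were higher. These values come from 1 or 2 arrays a side and carry no test. The share of probes well above background was 77.2% to 78.2% on slide 4 and at most 65.1% on the other slides, and its part in the differences was not tested.

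Of the 3 transcription factors among the members, Irf7, which amplifies interferon alpha production, had the widest Het minus WT difference. Irf7 lay at 1.37, -1.03, 2.14 and 0.84 in WT, 3.47, 0.33, 2.63 and 2.55 in Het and 1.57, 1.05, 1.46 and 1.69 in KO. Apart from the arrays numbered 3 all Het values exceed all WT values, and with them the groups overlap. The Het minus WT difference was 1.42 ± 0.70 (SE; limma adjusted p = 0.345), and 2.49 ± 0.55 without the arrays numbered 3 (limma adjusted p = 0.0224). KO minus WT was 0.61 ± 0.70 and KO minus Het -0.80 ± 0.70 (SE), neither called. Irf1, induced by interferon gamma, and Stat2, a transcription factor of the type I response, were 0.69 and 0.71 higher in Het than in WT and 0.61 and 0.14 higher in KO. The array lists Irf9, the DNA-binding partner of STAT2, under its older name Isgf3g, and it was 0.50 ± 0.26 higher in Het and 0.37 ± 0.26 higher in KO (SE), neither called.

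The nucleic acid sensors were led by Ifi203, a member of the HIN200 family of DNA-binding proteins. Its level was -0.55, -3.50, -1.64 and -2.02 in WT, 2.40, -3.87, 1.66 and 1.54 in Het and -0.22, -1.16, 0.10 and -0.03 in KO. Het replicate 3 was the lowest of all 12 arrays and the other Het arrays the highest. The Het minus WT difference of 2.36 ± 1.16 (SE; limma adjusted p = 0.340) became 3.89 ± 0.63 without the arrays numbered 3, a 14.9-fold difference (limma adjusted p = 0.00606). KO minus WT was 1.60 ± 1.16 and KO minus Het -0.76 ± 1.16 (SE), not called. The promoter stretch with its core is printed above. Ifi204, of the same family, lay at 2.93, 0.66, 1.56 and 2.00 in WT, 4.29, 0.35, 4.08 and 4.04 in Het and 2.61, 2.28, 2.70 and 2.65 in KO. It too was lowest on Het replicate 3 and highest on the other Het arrays, and its Het minus WT difference was 1.41 ± 0.78 (SE; limma adjusted p = 0.396), or 2.28 without the arrays numbered 3 (limma adjusted p = 0.0168). Its KO minus Het difference was -0.63 ± 0.78 (SE; limma adjusted p = 0.857).

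Ifi205 lay at 4.32, 2.78, 2.22 and 3.56 in WT, 4.86, 2.10, 4.67 and 4.72 in Het and 3.58, 3.35, 3.85 and 3.79 in KO. KO arrays fell inside the WT range. The difference was 0.87 ± 0.60 in Het and 0.42 ± 0.60 in KO (SE; limma adjusted p = 0.502 and 0.796). A dimmer Ifi205 probe gave 1.53 for KO minus WT, over 1 apart from the brighter probe. The brighter probe also lists Ifi204 and Ifi211 among its targets, so these paralogs cannot be separated by it. Zbp1, a sensor of Z-form nucleic acid that can start necroptosis, lay at -0.46, -2.42, -1.23 and -0.55 in WT, 1.99, -1.80, 1.37 and 1.33 in Het and 1.09, -0.21, 1.82 and 1.75 in KO. Every KO array exceeded every WT array, and Het replicate 3 lay within the WT range. Its KO minus WT difference of 2.27 ± 0.78 was the largest of the 37 members (SE; 4.84-fold, limma adjusted p = 0.176, exact p = 0.0286), and its Het minus WT difference was 1.89 ± 0.78 (SE; limma adjusted p = 0.262). Both passed without the arrays numbered 3, at 2.70 in Het and 2.69 in KO (limma adjusted p = 0.0109 and 0.00823).

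The cytoplasmic RNA sensors were not called. Ddx58 (RIG-I) was 0.25 higher in Het and 0.59 higher in KO, and Ifih1 (MDA5) 0.86 and 0.56 higher. The array name D11Lgp2e stands for Dhx58 (LGP2), which regulates both sensors, and it was 1.16 ± 0.53 higher in Het and 1.20 ± 0.53 higher in KO (SE), not called. Trim25, the ubiquitin ligase that acts with RIG-I, was 0.91 ± 0.28 higher in Het (SE, limma adjusted p = 0.143) and 0.30 higher in KO. Without the arrays numbered 3, Ifih1 and Trim25 passed in Het (1.06 and 1.12, limma adjusted p = 0.0447 and 0.0478) but not in KO. Dhx58 then passed in Het and KO (1.88 and 1.59, limma adjusted p = 0.0173 and 0.0255), and Ddx58 in neither.

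In the ISG15 system, Usp18, the protease that removes ISG15 and damps receptor signalling, lay at 3.61, 1.52, 3.57 and 3.27 in WT, 4.93, 2.83, 4.51 and 4.57 in Het and 3.95, 3.67, 4.02 and 4.05 in KO. KO arrays were all above WT arrays. The Het minus WT difference was 1.22 ± 0.51 and the KO minus WT difference 0.93 ± 0.51 (SE; limma adjusted p = 0.267 and 0.401). Isg15, the ubiquitin-like modifier, lay at 5.24, 3.68, 4.84 and 4.91 in WT, 6.56, 4.41, 5.98 and 6.15 in Het and 5.61, 5.57, 6.22 and 6.11 in KO. Here too the KO and WT groups did not overlap, and the differences were 1.11 ± 0.45 in Het and 1.21 ± 0.45 in KO (SE; limma adjusted p = 0.254 and 0.206). The array design places this Isg15 probe on chromosome 17 and RefSeq the gene on chromosome 4.

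Eif2ak2 phosphorylates the initiation factor eIF2 alpha when it binds double-stranded RNA. Its probe lies at chr17:77153382-77153441 of mm7; whether it falls in a coding exon or a UTR was not determined here. Eif2ak2 lay at 0.75, 0.50, 1.58 and 1.47 in WT, 2.77, 2.09, 2.36 and 2.36 in Het and 2.17, 2.12, 2.54 and 2.46 in KO. Every Het and every KO array exceeded every WT array, those numbered 3 included. Eif2ak2 rose 2.49-fold in Het (log2 1.32 ± 0.25 SE, limma adjusted p = 0.0403, exact p = 0.0286) and 2.37-fold in KO (log2 1.25 ± 0.25 SE, limma adjusted p = 0.0371, exact p = 0.0286). Both comparisons share the 4 WT arrays. The KO minus Het difference was -0.07 ± 0.25 (SE). With slide as a block the differences were 1.33 and 1.17 and did not pass (limma adjusted p = 0.148 and 0.160); both calls were also lost without scaling, without the filter on dim probes, with KO replicates 4 and 5 averaged or with the replicate number as a block (limma adjusted p = 0.174 and 0.184), and the Het call with normexp background correction. Leaving out a single array left differences of 1.13 to 1.49 in Het and 1.05 to 1.41 in KO, with limma adjusted p up to 0.141. The Het call held without the array labelled WT replicate 3, Het replicate 3 or KO replicate 3 and did not hold when another of the 12 arrays was left out. The KO call held without those 3 or without Het replicate 2 and did not hold in the other 8 cases.

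**Figure D5:**
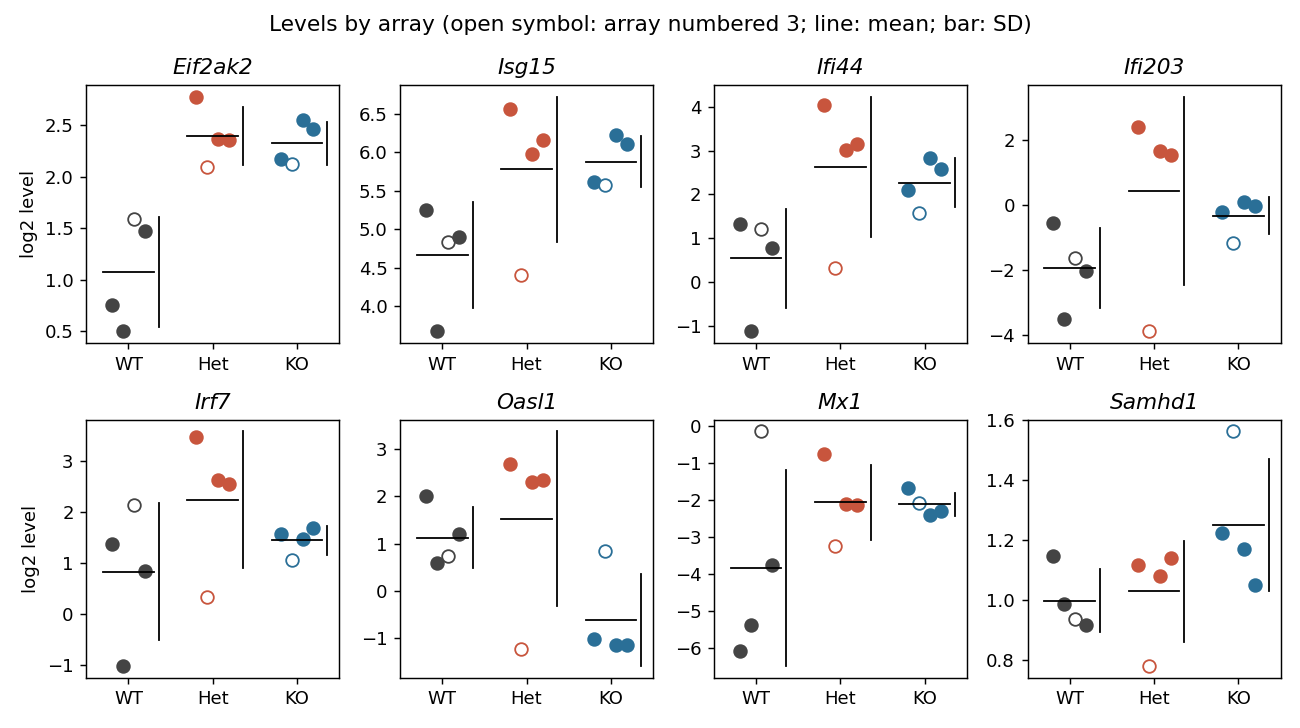
Log2 level by array of 8 interferon response genes in WT, Het and KO (points, open for the arrays numbered 3; horizontal lines, means; vertical bars, SD, n = 4). Eif2ak2 is above the WT arrays on every Het and KO array, Oasl1 is near -1 on KO replicates 2, 4 and 5 and Het replicate 3, and Samhd1 spans less than 1 log2 unit over all arrays.

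The oligoadenylate synthetases make the second messenger that activates RNase L, an activity that OASL1 lacks. Oasl1, which represses translation of Irf7 mRNA, differed from the other members. It lay at 2.00, 0.59, 0.73 and 1.20 in WT, 2.70, -1.23, 2.30 and 2.35 in Het and -1.01, 0.85, -1.14 and -1.14 in KO. KO replicates 2, 4 and 5 and Het replicate 3 formed a low set from -1.23 to -1.01, and no other array was below 0.59. Over all arrays the KO minus WT difference was -1.74 ± 0.80 and the KO minus Het difference -2.14 ± 0.80 (SE; limma adjusted p = 0.305 and 0.315). Without the arrays numbered 3 Oasl1 fell by 2.36 from WT to KO and by 3.54 from Het to KO, an 11.6-fold difference (limma adjusted p = 0.00184 and 0.000292), and rose by 1.18 from WT to Het (limma adjusted p = 0.0441). KO replicates 4 and 5 were nearly alike, so the low KO values do not all come from clearly distinct arrays. The Oasl1 probe lies at chr5:114158380-114158439 and that of Oasl2 at chr5:114132992-114133051 of mm7.

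The neighbouring Oasl2 gene lay at 2.85, 1.22, 3.65 and 2.72 in WT, 5.01, 2.30, 4.55 and 4.42 in Het and 3.80, 3.55, 4.26 and 4.34 in KO. KO arrays lay above all WT arrays, except that the array labelled WT replicate 3 lay above KO replicate 3. Oasl2 was 1.46 ± 0.60 higher in Het and 1.38 ± 0.60 higher in KO (SE; limma adjusted p = 0.256 and 0.271), and passed in both without the arrays numbered 3 (2.40 and 1.87). Oas3 lay at -2.52, -3.86, -1.99 and -3.52 in WT, -0.66, -3.38, -1.66 and -1.57 in Het and -1.71, -1.97, -1.94 and -1.88 in KO. KO arrays lay just above the highest WT array, with a difference of 1.10 ± 0.53 (SE; limma adjusted p = 0.332). A dimmer Oas3 probe gave -0.06 for KO minus WT, so the 2 probes disagree there, while both were higher in Het (1.15 and 0.97).

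Oas2 lay at 0.64, -0.95, 0.71 and 0.50 in WT, 2.47, -1.23, 1.25 and 1.15 in Het and 0.03, 1.15, -0.40 and -0.52 in KO. KO replicates 2, 4 and 5 were below the Het arrays other than replicate 3, and KO replicate 3 was close to Het replicate 5. The KO minus Het difference was -0.84 ± 0.69 (SE; limma adjusted p = 0.738), and without the arrays numbered 3 Oas2 fell by 1.92 (limma adjusted p = 0.0418). Ifit2, a translation inhibitor of the IFIT family, lay at 0.95, 0.57, 0.39 and 1.26 in WT, 2.20, 0.06, 1.73 and 1.37 in Het and 0.72, -0.05, 0.55 and 0.60 in KO. Its KO arrays again lay below the Het arrays other than replicate 3. The KO minus Het difference was -0.89 ± 0.40 (SE; limma adjusted p = 0.435), and -1.15 ± 0.24 without the arrays numbered 3 (limma adjusted p = 0.0208). Ifit1 and Ifit3, of the same family, were 0.42 and 0.95 higher in Het and 0.54 higher in KO for both, not called.

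Isg20, an RNA exonuclease, lay at 0.93, -0.07, -0.95 and 0.47 in WT, 1.99, -0.12, 1.66 and 1.89 in Het and 1.18, 0.85, 1.49 and 1.36 in KO. Only Het replicate 3 among the Het arrays and KO replicate 3 among the KO arrays lay within the WT range. The differences from WT were 1.26 ± 0.48 in Het and 1.12 ± 0.48 in KO (SE; limma adjusted p = 0.229 and 0.271). Adar, which deaminates adenosine in double-stranded RNA, was 0.40 higher in Het and 0.42 higher in KO, not called. Samhd1, a dNTP hydrolase, had the smallest Het minus WT difference of the 37 members, 0.03 ± 0.15 (SE), and was 0.25 ± 0.15 higher in KO (SE; limma adjusted p = 0.433).

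All 5 interferon-induced GTPases had a higher mean level in Het and in KO than in WT. Mx1, which blocks influenza virus replication, lay at -6.07, -5.36, -0.14 and -3.75 in WT, -0.75, -3.22, -2.11 and -2.11 in Het and -1.68, -2.08, -2.39 and -2.27 in KO. The array labelled WT replicate 3 was the highest of all 12 and the other WT arrays were the lowest. The differences from WT were 1.78 ± 1.04 in Het and 1.72 ± 1.04 in KO (SE; limma adjusted p = 0.421 and 0.446), and 3.40 and 2.94 without the arrays numbered 3 (limma adjusted p = 0.00864 and 0.0118). A second, dimmer Mx1 probe gave 1.75 and 1.58. It was well above background on only 2 of the 4 WT arrays, so these differences include values at background. Iigp1, an immunity-related GTPase, lay at 1.62, 0.27, 3.02 and 1.45 in WT, 4.66, 1.39, 3.46 and 3.16 in Het and 3.29, 2.62, 3.84 and 3.67 in KO. The array labelled WT replicate 3 was again above the other WT arrays. Iigp1 was 1.58 ± 0.67 higher in Het and 1.77 ± 0.67 higher in KO (SE; limma adjusted p = 0.276 and 0.218), and passed in both without the arrays numbered 3 (2.64 and 2.49).

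Gbp2, a guanylate-binding protein, lay at 1.18, -0.90, 0.29 and 0.76 in WT, 2.60, -0.11, 1.59 and 1.56 in Het and 2.18, 0.51, 2.36 and 2.34 in KO. Het replicate 3 and KO replicate 3 lay within the WT range and all other mutant arrays above it. Its KO minus WT difference was 1.52 ± 0.62 (SE; limma adjusted p = 0.250) and its Het minus WT difference 1.08 ± 0.62. Gbp3, listed on the array as Gbp4, was 1.48 ± 0.72 higher in Het and 1.28 ± 0.72 higher in KO (SE), not called. Mx2, a relative of Mx1, lay at 1.73, -0.13, 1.56 and 1.40 in WT, 3.15, 1.17, 2.61 and 2.62 in Het and 2.36, 2.04, 1.81 and 1.70 in KO. The Het minus WT difference was 1.25 ± 0.46 and the KO minus WT difference 0.84 ± 0.46 (SE; limma adjusted p = 0.212 and 0.401). Igtp was 1.16 higher in Het and 1.18 higher in KO, with KO arrays above all WT arrays.

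Of the 8 other effectors all were higher than WT in Het and in KO, and all were lower in KO than in Het. Ifi44, of unsettled function, lay at 1.32, -1.12, 1.20 and 0.77 in WT, 4.03, 0.33, 3.00 and 3.16 in Het and 2.10, 1.57, 2.84 and 2.57 in KO. A dimmer Ifi44 probe had the array labelled WT replicate 3 (-0.90) above KO replicates 3 (-0.99) and 5 (-0.96). On the brightest probe KO arrays were all above WT arrays, and Het replicate 3 was within the WT range. Ifi44 was 2.09 ± 0.74 higher in Het and 1.73 ± 0.74 higher in KO (SE; limma adjusted p = 0.195 and 0.271), and passed in both without the arrays numbered 3 (3.07 and 2.18; limma adjusted p = 0.0121 and 0.0357). Rsad2 (viperin), which makes a chain-terminating nucleotide, lay at 1.46, -0.76, 0.60 and 0.13 in WT, 3.67, -1.37, 2.90 and 2.81 in Het and 2.16, -0.24, 1.86 and 1.71 in KO. Both replicates 3 of the mutants fell among or below the WT values. Rsad2 was 1.64 ± 0.98 higher in Het (SE; limma adjusted p = 0.432) and 2.85 ± 0.50 without the arrays numbered 3 (limma adjusted p = 0.00894), and KO minus Het was -0.63 ± 0.98.

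Parp14, a mono-ADP-ribosyltransferase that uses NAD, lay at 2.10, 0.67, 2.17 and 2.17 in WT, 4.14, 1.54, 3.68 and 3.59 in Het and 2.51, 2.21, 2.88 and 2.74 in KO. The dimmer Parp14 probes had the array labelled WT replicate 3 above KO replicates 3, 4 and 5. On the brightest probe KO arrays lay narrowly above the WT arrays and below the Het arrays other than replicate 3. The Het minus WT difference was 1.46 ± 0.52, KO minus WT 0.80 ± 0.52 and KO minus Het -0.65 ± 0.52 (SE; limma adjusted p = 0.195, 0.486 and 0.723). Bst2 (tetherin), Ifitm3, Lgals3bp, Ifi35 and Rtp4 were 0.97, 0.72, 0.71, 0.78 and 1.13 higher in Het and 0.39, 0.14, 0.15, 0.70 and 0.75 higher in KO, none called.

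Members measured by more than 1 probe gave a check of single probes. The 18 such members had 23 further tested probes, of which 22 had the sign of the brightest probe in Het against WT, 22 in KO against WT and 20 in KO against Het. Each member was also set against the median of the other members over the 12 arrays. The median Pearson r was 0.91, and 19 members exceeded 0.9, led by Ifi44 (0.99), Parp14 (0.98) and Usp18 (0.97). The lowest were Oasl1 (0.38), Samhd1 (0.39) and Mx1 (0.56). These correlations describe 12 arrays that share scaling and genotype and carry no test.

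Of all 16981 features that could be compared, 41 had r above 0.9 with the members' median level, and 19 of those 41 were members. The 12 other features most like it were Gbp4 (r = 0.98), D11Ertd759e, now Rnf213, D11Lgp2e, Plec1, 4930599N23Rik, NAP007796-001, BC013672, Tmem106a, Fbxo39, Tor3a, AI607873, now Ifi207, and Oas1f (r = 0.94). Gbp4 and D11Lgp2e are the array's names for the listed Gbp3 and Dhx58.

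Upstream of the response, 35 of 41 listed ligands, receptors, kinases, adaptors and feedback genes were tested. Of these 2 were called higher in Het, where 0.671% of all features were (28 had a higher mean; median difference 0.23), none in KO against WT (26 had a higher mean; median 0.15) and none between KO and Het. Without the arrays numbered 3, 6 of the 35 rose in Het, where 6.10% of features did, and 3 in KO, where 8.54% of features did, so the KO count was close to the background. Ifna2 and Ifna4 were too dim for testing over all arrays, above background on 1 and 2 of the 4 WT arrays, and no difference is given for them. Ifna1, an interferon alpha gene, lay at -5.97, -6.28, -6.17 and -5.76 in WT, -4.77, -5.27, -5.03 and -4.64 in Het and -5.45, -5.31, -5.99 and -5.36 in KO. These levels were near background, above it on 2 of 4 WT arrays and on all Het and KO arrays. The Het arrays lay above all WT arrays (1.12 ± 0.20 SE, limma adjusted p = 0.0381), a size that rests in part on WT values at background. Tlr4, the lipopolysaccharide receptor, lay at -1.49, -2.02, -2.13 and -2.08 in WT, -0.69, -1.01, -0.91 and -1.07 in Het and -1.87, -1.79, -1.15 and -1.31 in KO. Its Het arrays were above all WT and all KO arrays, with a Het minus WT difference of 1.01 ± 0.21 (SE; limma adjusted p = 0.0445).

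Ifnb1, the interferon beta gene, lay at -3.77, -7.33, -6.37 and -5.08 in WT, -3.32, -7.80, -4.22 and -4.23 in Het and -4.98, -5.46, -4.62 and -4.71 in KO. It was above background on 2 WT, 3 Het and 4 KO arrays, so its lowest values have no order, and it was highest on Het replicate 2. The Het minus WT difference, which includes values at background, was 0.75 ± 0.93 (SE; limma adjusted p = 0.733). Ifng was above background on no array. The receptor chains Ifnar1 and Ifnar2 were 0.28 and 0.45 higher in Het, not called. Socs1, the feedback inhibitor of JAK kinases, Tmem173 (STING, on the array as 2610307O08Rik) and Irf5 were 0.91, 0.88 and 1.19 higher in Het (limma adjusted p = 0.0732, 0.0671 and 0.284) and 0.75, 0.33 and 1.61 higher in KO, none called. Without the arrays numbered 3 all of these passed in Het (limma adjusted p = 0.0102, 0.0122 and 0.00491), and in KO Socs1 (0.76, limma adjusted p = 0.0352), Irf5 (1.73, limma adjusted p = 0.000519) and Ifnar1 (0.72, limma adjusted p = 0.00662) passed.

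A further 54 interferon-induced genes outside the members were listed, and 44 were tested. Their median difference was 0.62 in Het against WT (36 higher) and 0.60 in KO against WT (41 higher), with none called in either. Without the arrays numbered 3, 20 rose in Het, where 6.10% of features did, and in KO 12 rose, where 8.54% of features did, and 1 fell. Gbp4 in this list is the array's name for Gbp3.

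Markers of other cell types were summed on each array as well. Of 14 macrophage and leukocyte markers, 5 were tested. Cd68 and Cd14 were well above background on all 12 arrays, and Ptprc and Mrc1 were above it on no array. The summed linear level of the 14 was 0.71 to 2.18 in WT, 0.66 to 1.35 in Het and 0.69 to 0.91 in KO. Of 6 endothelial markers, 2 were tested, Kdr and Tek, both well above background on all 12 arrays. Pecam1 and Tie1 were above background on no array. The endothelial sum was 0.24 to 0.49 in WT, 0.10 to 0.13 in Het and 0.09 to 0.37 in KO. The Kdr difference from WT was -2.34 in Het and -1.61 in KO, neither called (limma adjusted p = 0.0627 and 0.165). Without the arrays numbered 3 it was -2.432 and -2.438, and both passed (limma adjusted p = 0.00168 and 0.00116). Tek differed from WT by 0.03 in Het and -0.10 in KO, not called. All 6 epithelial markers were tested, with a sum of 0.17 to 0.75 in WT, 0.40 to 2.39 in Het and 1.39 to 1.61 in KO. Over the 12 arrays the sums had r = 0.32 (leukocyte), -0.44 (endothelial), 0.56 (epithelial) and 0.01 (fibroblast) with the members' median level, as a description. The epithelial sum was higher on the KO arrays than on every WT array. All 6 epithelial markers had a higher mean in Het than in WT and 5 in KO. Krt8, a simple epithelial keratin, was 3.36 higher in Het (limma adjusted p = 0.0387), with WT above background on 1 of 4 arrays, and Epcam, on the array as Tacstd1, 1.59 higher in KO (limma adjusted p = 0.0465), likewise with WT above background on 1 array. Of the 11 fibroblast markers, 7 had a lower mean in KO than in WT and 9 a lower mean than in Het. Thy1, a surface glycoprotein, fell by 3.47 from WT to KO and by 2.16 from Het to KO (limma adjusted p = 0.00169 and 0.0101), and Dcn, the proteoglycan decorin, fell by 3.21 from Het to KO (limma adjusted p = 0.0194). The part of these markers in the interferon gene differences was not tested.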

How the data were processed

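RNA of 12 MEF samples was hybridised to Agilent 4x44K single-colour arrays, labelled from 500 ng of total RNA per the labels' protocols. The deposited intensity values were the authors' scanner output of Feature Extraction 9.5 (per the submitters' processing notes), with probe coordinates of mm7 per the file headers. The deposited series table held the same processed intensities on the linear scale, with no log2 transform.

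For this report, control and outlier-flagged spots were left out, spots of a probe averaged, and log2 processed signals set relative to each array's 75th percentile. No pseudocount was added. Features well above background on all arrays of at least 1 genotype were tested, and the probe with the highest mean stood for a gene name. Genotype means were fitted over all 12 arrays with limma 3.58.1 in R 4.3.3 (lmFit, eBayes, Benjamini-Hochberg, threshold 0.05), tested first on simulated data. Single genes were also compared by exact two-sided permutation tests. The number of arrays limits the precision.

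Members, gene lists and the decision to leave out arrays numbered 3 were chosen with earlier results of these data known. Values by array are given for called members, for the 14 (Het against WT) or 8 (other comparisons) largest differences, and for members whose probes differed by over 1. Isg15 was added after its values were seen. Upstream genes named are those called and the 6 largest, with Ifng and the receptors added; a gene of both pathway lists was left out and is not reported here. Alternatives tried were normexp background correction, quantile or no scaling, no filter, separate probes, slide or replicate block, array weights, single arrays or those numbered 3 left out, the series table, and, chosen after seeing the data, KO replicates 4 and 5 averaged.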

Additional observations from a re-analysis of the deposited data

Results flagged for a closer look

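In 13 of 114 groups of 4 arrays (the 37 genes and their median, in 3 genotypes), the highest or lowest array stood apart from the others by more than 0.829 of the group's range, the critical value of Dixon's test for 4 samples; chance marks about 1 group in 20. Het replicate 3 stood apart on the low side for 6 genes: Isg20 (gap over range 0.841), Oasl1 (0.899), Ifi203 (0.863), Ifi204 (0.937), Ifi205 (0.932) and Samhd1 (0.829). WT replicate 2 was low for 5 genes: Oas2 (0.873), Usp18 (0.839), Parp14 (0.953), Igtp (0.940) and Bst2 (0.836). KO replicate 3 stood apart for 2 genes, high for Oasl1 (0.933) and low for Gbp2 (0.903). The genes share their arrays, so these are not separate events.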

How the results depend on the processing

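The median differences over the members kept their sign under every setting tried. They moved by less than 0.69, the SD of the members' median level between arrays, pooled over genotypes. That SD was 0.64 in WT, 0.99 in Het and 0.19 in KO, so the pooled value is a wide allowance. KO minus WT was 0.75, but 0.44 without WT replicate 2 and 1.08 with slide as a block. KO minus Het shrank from -0.30 to -0.02 without Het replicate 2. Leaving out single arrays gave medians of 0.73 to 1.56 (Het against WT), 0.44 to 0.88 (KO against WT) and -0.73 to -0.02 (KO against Het). The count of called members was less stable. In Het against WT it was 0 with normexp or without scaling (42 and 79 of 16990 features were called). It was 0 without the filter on dim probes (33 of 27962 features). It was also 0 with slide as a block (31 of 16990) or with KO replicates 4 and 5 averaged (36 of 17006). With array weights it was 25 (13.9% of all features were called), and without the arrays numbered 3 it was 26 (2166 of 17807). Without single arrays it was 0 to 11, where 17 to 1488 features were called. In KO against WT it was 0 without scaling (142 of 16990 features were called) or without the filter (96 of 27962). It was also 0 with slide as a block (57 of 16990) or with KO replicates 4 and 5 averaged (55 of 17006). With array weights it was 18 (30.7% of features), and without the arrays numbered 3 it was 14 (17.1%). Without single arrays it was 0 to 2, where 51 to 1751 features were called. In KO against Het it was 13 with array weights, near the background (33.1% of features). Without single arrays it was 0 to 2, where 35 to 396 features were called. Without the arrays numbered 3 it was 3, also near the background (1620 of 17807 features). The causes were not tested. With the replicate block no member was called in any comparison (medians 1.15, 0.79 and -0.30). Of all 16990 features 82, 115 and 153 were called there, in Het against WT, KO against WT and KO against Het. Arrays of the same number deviated together with correlations of -0.04 to 0.43, not all above 0.1. The 3 pairs of arrays numbered 3 had 0.43, 0.22 and 0.36. Pairs of unlike number were not set beside these, so the correlations do not decide whether the numbers pair the samples. The numbers were not taken to pair them. Of the differences of the named members, on the brightest probe of each, 667 kept their sign and side of the threshold. A call was gained by 64 and lost by 28, and none turned. With the processing used for this report only the Eif2ak2 differences from WT were called, so only these could lose a call. Most of the 667 were uncalled throughout. The series table held the same values, so the 33 kept there were fixed in advance. Without scaling the median over all features shifted by -0.24 in Het against WT and by 0.25 in KO against Het; 14 of 79 called features were then higher in Het, against 114 of 199, and 134 of 164 higher in KO than in Het, against 99 of 169. With normexp these were 21 of 42 in Het against WT. Dim probes, such as those of Ifnb1 and the interferon alpha genes, limit what can be measured.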
